A study of Mus musculus with 14 samples.

Results

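The mitosis genes are 41 genes whose products carry a cell through nuclear division, from the switch that starts it to the cut that parts the daughter cells. They were chosen by symbol from the 24411 genes counted in each library, and all 41 were among the 14300 genes that passed the filter on low counts. Bulk RNA sequencing, in which the transcripts of every cell type in the tissue are read as a single pool, was made from kidneys of male C57/B6 mice aged 8 weeks at day 0 (4 libraries), day 1 (5 libraries) and day 3 (5 libraries) after renal ischemia/reperfusion injury (IRI), in which the blood supply of the kidney is stopped and then restored. No allele or agent is named for any group, and the sources used here do not say whether the day 0 kidneys had a sham operation or whether each library came from its own animal, so the p-values below measure the spread between these libraries.

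In a dividing cell, Cdk1 bound to cyclin B starts mitosis, and the Plk1 and Aurora kinases then build the spindle and check that each kinetochore, the protein plate on a centromere, is held by microtubules. The anaphase-promoting complex, guided by Cdc20, marks cyclin B and securin for destruction, the sister chromatids part, and a ring of actin and anillin divides the cell. Most of these genes are silent in resting cells and are switched on together late in the cycle. Kidney tubule cells of an adult mouse seldom divide, and tubule cells that survive ischemia are known to re-enter the cell cycle.

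The number in a library's name has 1 digit in some libraries and 3 in others, and what that marks is not given in the sources used here. The 3-digit libraries were replicates 1 and 2 of day 1 and replicates 1, 2 and 3 of day 3. The other 9 libraries, with all 4 of day 0, had 1-digit numbers. Because the mitosis genes followed this split at day 3, results below are given by day and, for many of them, also by number format. At day 0 there was no 3-digit library, so a 3-digit library set against day 0 differs from it in both day and format, and these cannot be told apart there.

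Reads on genes ranged from 12485579 to 20476979 per library, and levels are given as CPM, the counts of a gene per megaread of its library, with library totals scaled by the trimmed mean of M-values. Proximal tubule markers, 10 genes of the main cell of the kidney cortex, were all detected and summed to 41855 to 46587 CPM at day 0, 18451 to 47238 at day 1 and 9390 to 20395 at day 3. Markers of injured tubule (6 genes, with Havcr1 and Lcn2) summed to 233 to 313 CPM at day 0, 2117 to 7061 at day 1 and 1784 to 6237 at day 3. Of the 6, 5 were called higher than day 0 in the 1-digit and 5 in the 3-digit libraries of day 1. Havcr1 (KIM-1) was the exception in the 1-digit libraries of day 1 (-0.48 ± 0.53, adjusted p = 0.454), and there the 3-digit libraries were higher by 5.01 ± 0.69 (adjusted p = 0.00037). Markers of T and B cells, which also divide, summed to at most 3.21 CPM in any library. Of the 6 erythroid markers, 4 globin genes had 0 reads in all libraries. The rest, mostly Alas2, summed to 0.338 to 7.84 CPM in the 3-digit and 11.2 to 16.7 CPM in the 1-digit libraries of day 3 (Alas2, log2 difference -1.67 ± 0.67, adjusted p = 0.093), and its part in the results was not tested.

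The mitosis genes together were rare at day 0, at 147, 100, 130 and 108 summed CPM in replicates 1 to 4. At day 1 they summed to 82.0, 176, 99.5, 117 and 106 CPM. At day 3 the sums were 1063, 1282 and 1662 CPM in 3-digit libraries and 213 and 117 CPM in 1-digit libraries. The lowest 3-digit library of day 3 was thus far above every other library, while replicate 5 of day 3 lay within the range of day 0. In bulk RNA, fewer cells of a dividing type and less RNA per cell cannot be told apart.

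**Figure D1:**
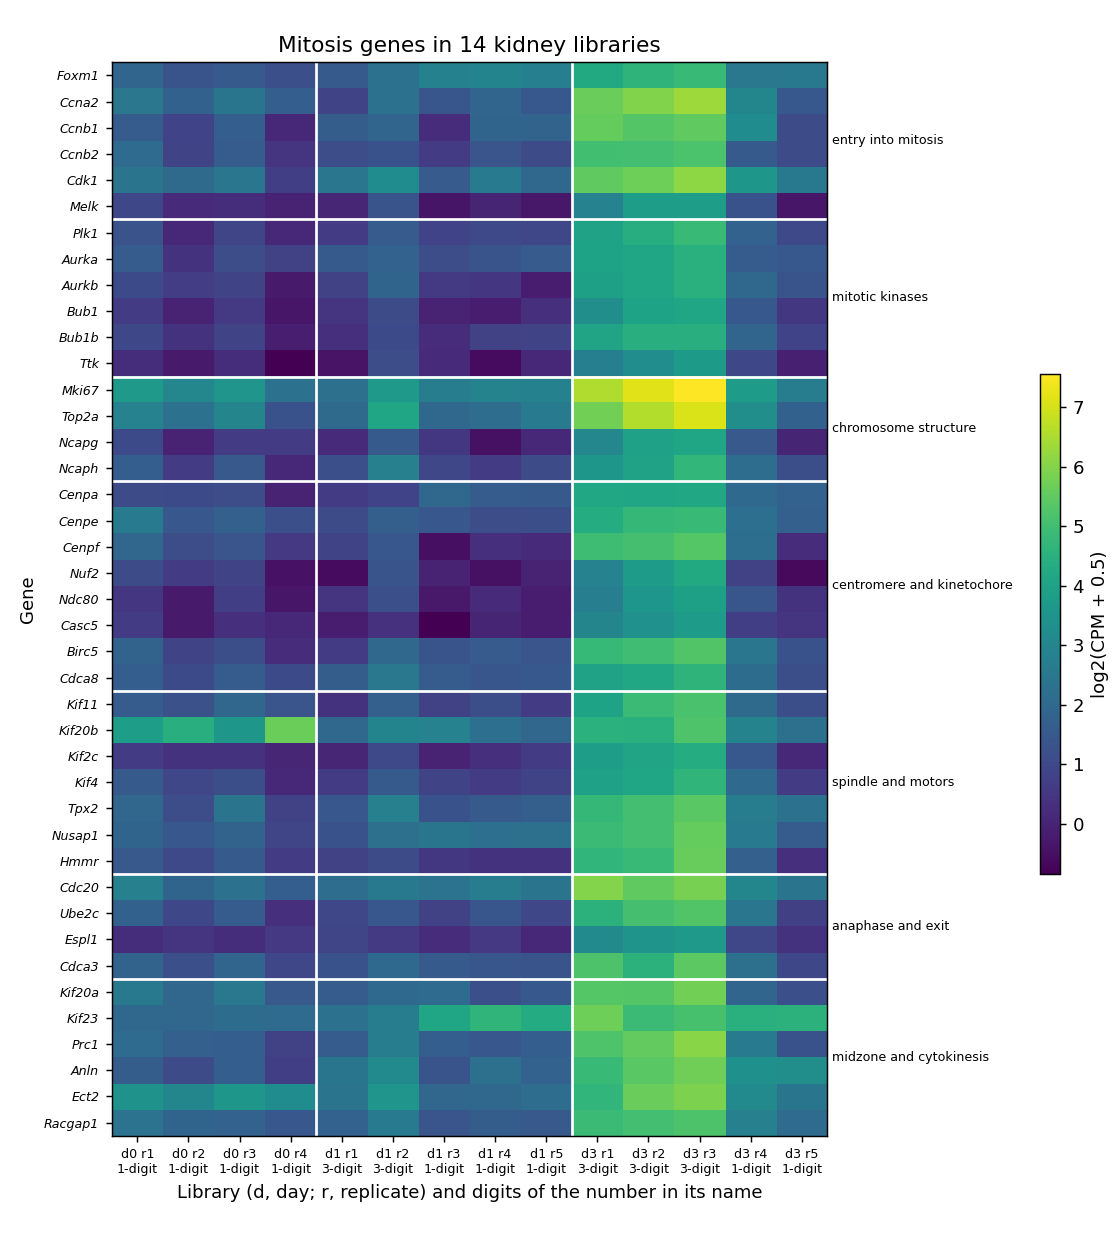
Level of each of the 41 mitosis genes (rows, grouped by role) in each of the 14 libraries (columns, by day, replicate and digits of the number in the name), as log2(CPM + 0.5). The 3 3-digit libraries of day 3 are the brightest columns in 40 of 41 rows, and Kif20b is the row that is brightest at day 0.

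Promoter sequences show a trait that the choice of genes did not use. RefSeq (GRCm38.p6) gave a window from 250 bases before to 50 bases after the transcript start for 36 of the 41 genes (38 windows). Each window was searched on both strands for the cell cycle genes homology region (CHR), written TTTGAA or its variant TTCGAA, and for the CCAAT box, which the factor NF-Y binds. As background, MuvB complexes bind the CHR, with p130 and E2F4 as the repressor DREAM in resting cells and with B-Myb and Foxm1 as activators in dividing cells. A CHR between 100 bases before and 50 after the start was found in 28 of 36 mitosis genes (77.8%) and in 9.87% of all 27025 genes with a window. A CCAAT box lay in the windows of 26 of 36 (72.2%), against 41.1% of all genes, and at least 2 boxes in 17 (47.2%), against 13.3%. Both motifs together were present in 24 of 36 (66.7%), against 3.93% of all genes.

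Neither a CHR in that near window nor a CCAAT box was found in Birc5, Kif2c, Melk, Ncaph, Nuf2 and Nusap1 (Kif2c has a CHR match at -103 bases from the start), which is 16.7% of the mitosis genes with a window and 53.6% of all genes. The Kif2c window (around chr4:117178743-117178922, minus strand) lies inside the annotated gene, whose 5′ end is at 117182639. Sequence at that end was not searched. Matches to the CHR in the mitosis genes had a median position of 2 bases after the start, and 31 of 39 (79.5%) lay in the near window, against 41.4% of all 7260 matches. CCAAT boxes had a median position of 71 bases before the start. The E2F motif TTTGGCGC was in 0 of 36 windows and TTTCCCGC in 1, that of Ncapg, against 0.585% and 1.24% of all genes. A match is a description of letters in these windows and not a bound site.

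The stretches below run from 150 bases before to 30 bases from the start in 7 genes, shown because they span the behaviours described afterwards: Cdk1, Cdc20, Top2a, Plk1 and Ccnb1 had their top levels in the 3-digit libraries of day 3, Kif23 was already high in some day 1 libraries, and Kif20b was high at day 0. Each is read 5′ to 3′ along the gene's strand, with CHR and CCAAT matches of either strand in capitals (ATTGG and TTCAAA are the reverse-strand forms).

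Cdk1, GRCm38.p6 chr10:69352883-69353062, minus strand: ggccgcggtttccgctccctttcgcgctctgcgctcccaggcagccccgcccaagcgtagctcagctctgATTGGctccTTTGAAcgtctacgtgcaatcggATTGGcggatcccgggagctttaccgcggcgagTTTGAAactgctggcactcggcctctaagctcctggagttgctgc

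Cdc20, GRCm38.p6 chr4:118437314-118437493, minus strand: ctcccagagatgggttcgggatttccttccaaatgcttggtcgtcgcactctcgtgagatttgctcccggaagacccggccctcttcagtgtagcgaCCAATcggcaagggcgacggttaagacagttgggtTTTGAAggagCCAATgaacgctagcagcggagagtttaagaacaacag

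Top2a, GRCm38.p6 chr11:99024160-99024339, minus strand: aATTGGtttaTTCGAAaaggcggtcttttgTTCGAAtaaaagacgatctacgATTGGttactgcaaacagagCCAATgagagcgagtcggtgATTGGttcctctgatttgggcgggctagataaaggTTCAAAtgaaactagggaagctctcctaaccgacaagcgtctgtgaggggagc

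Plk1, GRCm38.p6 chr7:122159285-122159464, plus strand: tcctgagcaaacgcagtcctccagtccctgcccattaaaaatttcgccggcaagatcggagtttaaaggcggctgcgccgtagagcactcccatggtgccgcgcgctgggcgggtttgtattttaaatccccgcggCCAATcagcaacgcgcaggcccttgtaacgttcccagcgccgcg

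Ccnb1, GRCm38.p6 chr13:100786457-100786636, minus strand: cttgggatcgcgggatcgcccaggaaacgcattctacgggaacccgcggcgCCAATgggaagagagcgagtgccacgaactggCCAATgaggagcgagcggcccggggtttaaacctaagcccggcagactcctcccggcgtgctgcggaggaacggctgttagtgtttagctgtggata

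Kif23, GRCm38.p6 chr9:61946770-61946949, minus strand: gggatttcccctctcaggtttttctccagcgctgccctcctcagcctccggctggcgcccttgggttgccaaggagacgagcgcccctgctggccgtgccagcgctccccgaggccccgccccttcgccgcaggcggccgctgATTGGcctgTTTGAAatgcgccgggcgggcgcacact

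Kif20b, GRCm38.p6 chr19:34922208-34922387, plus strand: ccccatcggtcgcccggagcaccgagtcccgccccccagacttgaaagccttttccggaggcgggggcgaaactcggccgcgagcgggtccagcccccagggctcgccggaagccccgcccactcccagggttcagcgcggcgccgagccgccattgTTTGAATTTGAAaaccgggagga

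Cdk1, Cdc20, Top2a and Kif23 held both motifs in the stretch. Plk1 held a CCAAT box here and a CHR 30 bases after the start, just past the stretch. Ccnb1 held 2 CCAAT boxes and no CHR by these letters, and Kif20b held a pair of adjoining CHR matches and no CCAAT box in the window.

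**Figure D2:**
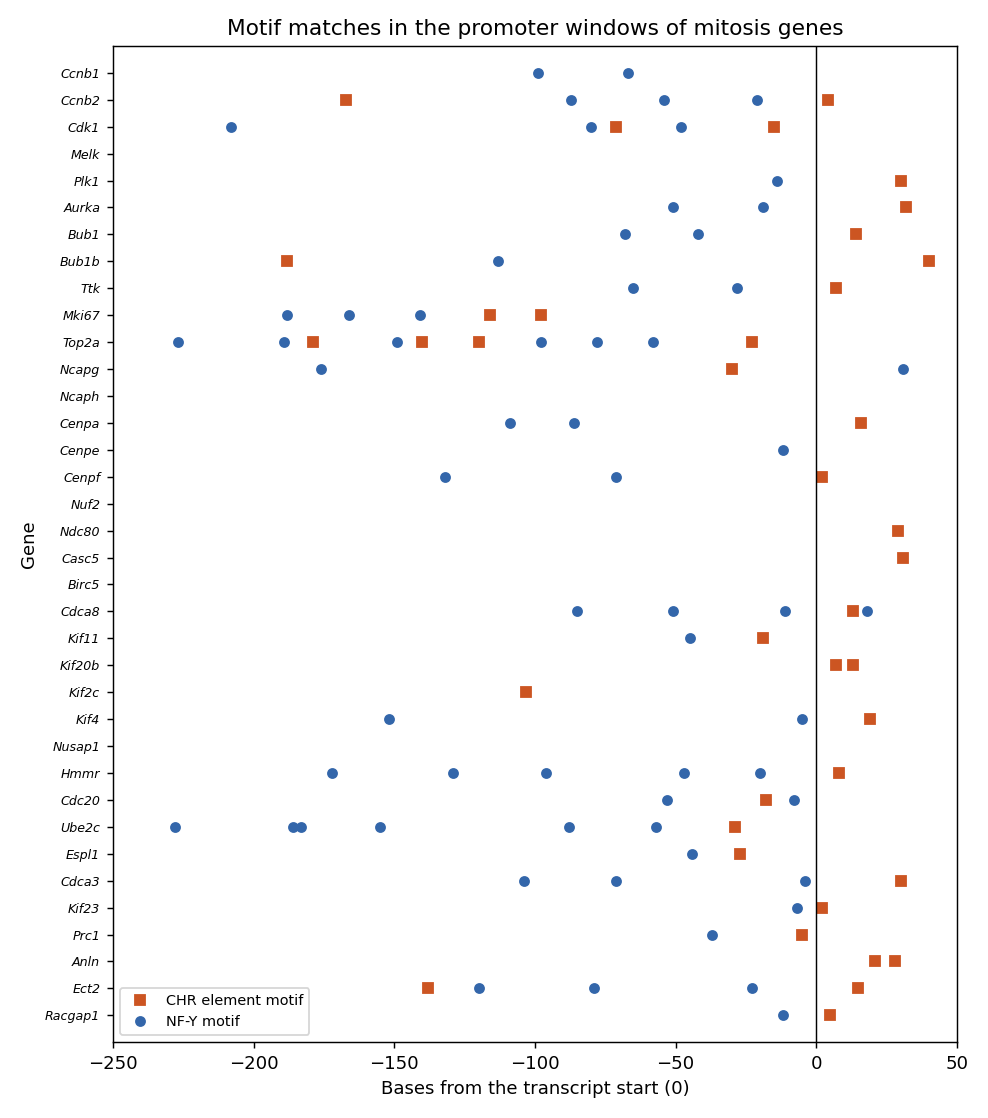
Positions of CHR motif matches (squares) and NF-Y motif matches (circles, the CCAAT box) in bases from the transcript start, for the 36 mitosis genes with a RefSeq window (the window of lowest coordinate where a gene has 2). CHR matches gather around the start, with a median 2 bases after it, and CCAAT matches before it, with a median 71 bases upstream.

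At day 1 few of the mitosis genes were called against day 0. Of 41 genes, 1 rose (Kif23) and 1 fell (Kif20b) in the comparison over all libraries, where 23.3% of all genes tested rose and 18.7% fell (edgeR's quasi-likelihood test, Benjamini-Hochberg adjusted p under 0.05 over all genes tested). The median log2 fold change was 0.20 over the mitosis genes and 0.01 over all genes. An unadjusted p under 0.05 in that test was found in 4 of the 41 and in 7363 of all 14300 genes. With the number format as a further term, 8 were called, 1 higher (28.1% of all genes in that fit) and 7 lower (27.9%). That fit assumes the same format difference at days 1 and 3, while its median was 0.50 at day 1 and 3.17 at day 3 (log2). These 8 calls thus depend on an assumption that the format comparisons below do not meet. Day 1 against day 0 within the 1-digit libraries gave 3 genes higher (Foxm1, Cenpa and Kif23; 28.9% of all genes) and 4 lower (Cenpf, Kif20b, Hmmr and Ect2; 29.6%). Set against day 0, the 3-digit libraries of day 1 gave 1 higher (Anln; 22.6%) and 1 lower (Kif20b; 19.0%).

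At day 3 nearly the whole set rose. Against day 0, 39 of 41 genes were higher and 0 lower, where 19.5% of all genes tested rose. The 2 genes not called were Ect2 (log2 fold change 1.60 ± 0.61, SE, adjusted p = 0.0562) and Kif20b (-0.38 ± 0.55, adjusted p = 0.615). Ect2 was called without replicate 2 of day 1 (1.60) or replicate 4 or 5 of day 3 (1.84 and 1.88). The median log2 fold change was 3.21, which is 9.25-fold, against 0.05 over all genes. Against day 1, 40 of 41 were higher (8.52% of all genes), with a median log2 fold change of 3.12, and Kif23 was the gene not called (1.16 ± 0.40, adjusted p = 0.0603, and called at 1.45 without replicate 4 of day 1). With the number format as a further term, 16 of the 41 were called higher at day 3 than at day 0, where 26.2% of all genes were in that fit. It too assumes the same format difference at days 1 and 3, so this count depends on that assumption. The 2 comparisons with day 3 share its 5 libraries.

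The rise at day 3 lay mainly in its 3-digit libraries. Within day 3, all 41 genes were higher in the 3 3-digit libraries than in the 2 1-digit libraries, where 10.3% of all genes were higher, with a median log2 fold change of 3.17 (8.98-fold) against 0.01 over all genes. The smallest difference was that of Kif23 (0.77 ± 0.23, adjusted p = 0.0386) and the largest that of Hmmr (4.24 ± 0.51, adjusted p = 0.00129). Without replicate 5 of day 3, which leaves 1 1-digit library of that day, fewer of the 41 were called. In 40 of 41 genes the lowest 3-digit library of day 3 exceeded each of the other 11 libraries, a pattern found in 2.47% of all genes, and Kif20b was the exception.

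The 1-digit libraries of day 3 gave a much smaller difference from day 0. Of 41 genes 7 were higher (Foxm1, Ccnb1, Cdk1, Aurkb, Cenpa, Kif23 and Anln) and 1 lower (Kif20b), shares no greater than those of all genes (28.6% higher and 25.1% lower), with a median log2 fold change of 0.57. Against the 1-digit libraries of day 1, 5 were higher (Aurkb, Bub1, Cenpf, Anln and Racgap1; 16.5% of all genes). The 3-digit libraries of day 3 gave 40 higher than day 0 (19.1% of all genes; not Kif20b), with a median log2 fold change of 3.85 (14.4-fold), and 41 higher than the 3-digit libraries of day 1 (7.50%).

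The 1-digit libraries of day 3 also differed from each other. Replicate 4 was above all 4 libraries of day 0 in 35 genes (42.4% of all genes), all but Ccnb2, Cenpe, Ect2, Kif20a, Kif20b and Nuf2. Replicate 5 was above them in 6 genes (44.4% of all genes).

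Within day 1 few of these genes differed between the number formats. Aurkb, Anln and Ect2 were higher in the 3-digit libraries (3 of 41; 18.6% of all genes) and Foxm1, Cenpa and Kif23 lower (3 of 41; 16.4%), with a median log2 difference of 0.50. Without replicate 3 of day 1, 2 of the 41 were called, and without replicate 4 or 5, 3. The shares of all genes called in those fits are not given here. The signed log2 difference, 3-digit minus 1-digit, was higher at day 3 than at day 1 in 24 of 41 genes (9.10% of all genes), by a test of that interaction, and in 13 without replicate 1 of day 1. For the other 17 a p above the threshold does not show that the format differences were alike, and the interaction had a positive sign in all 41.

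**Figure D3:**
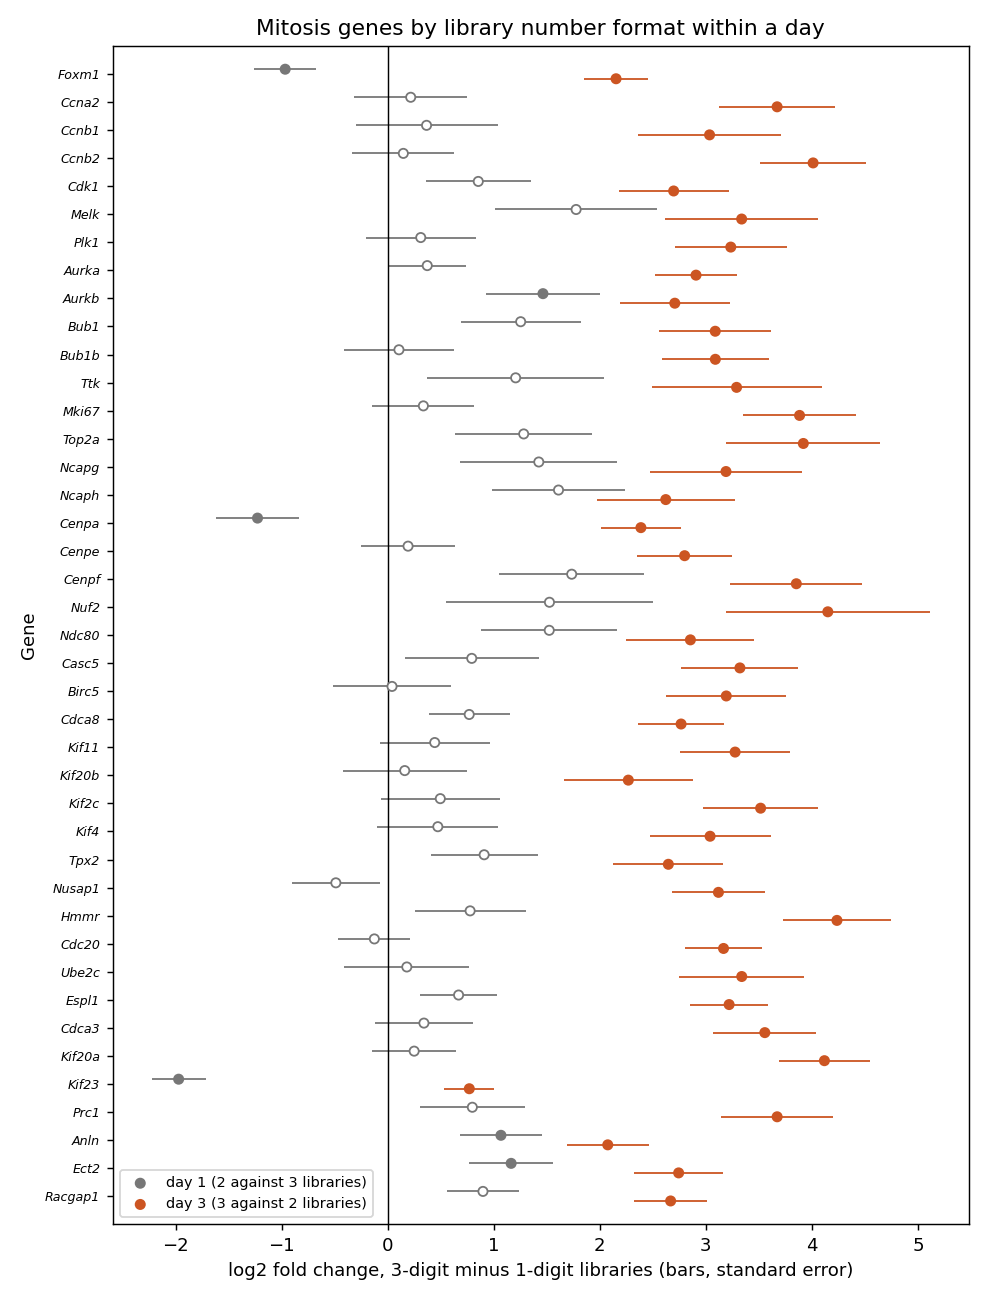
Fitted log2 fold change between 3-digit and 1-digit libraries for each mitosis gene, within day 1 (grey, 2 against 3 libraries) and within day 3 (orange, 3 against 2 libraries), with standard errors and with filled points for an adjusted p under 0.05. All 41 orange points are filled and lie between 0.77 and 4.24, and 6 grey points are filled.

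Among the genes that start mitosis, Ccnb1, the cyclin B that activates Cdk1, had the largest rise of the set from day 0 to day 3. Its levels were 2.53, 1.29, 2.72 and 0.605 CPM at day 0 and 2.64, 3.27, 0.681, 3.14 and 3.06 CPM at day 1. At day 3 they were 46.8, 38.7 and 45.3 CPM in 3-digit libraries and 8.88 and 1.69 CPM in 1-digit libraries. The 3-digit libraries thus stood clear above all others, and replicate 5 of day 3 was within the day 0 range. The log2 fold change was 3.98 ± 0.82 (adjusted p = 0.0027) against day 0, 0.52 ± 0.76 (adjusted p = 0.6) for day 1 against day 0, and 3.04 ± 0.67 (adjusted p = 0.0123) between formats within day 3.

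Cdk1, the kinase that drives entry, had 4.77, 3.65, 4.99 and 1.15 CPM at day 0 and 5.01, 8.90, 2.45, 5.49 and 3.54 CPM at day 1. Its day 3 levels were 44.7, 51.7 and 68.8 CPM in 3-digit libraries and 11.6 and 5.36 CPM in 1-digit libraries, both above all of day 0. It rose by 3.32 ± 0.69 on the log2 scale from day 0 to day 3 (adjusted p = 0.0028), and by 1.22 ± 0.46 in the 1-digit libraries alone (adjusted p = 0.0403).

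Foxm1, the forkhead factor that turns on late cell cycle genes, was already above day 0 in the 1-digit libraries of day 1. Its levels were 3.22, 2.06, 2.40 and 1.81 CPM at day 0, 2.42 and 4.45 CPM in 3-digit and 6.68, 7.14 and 6.43 CPM in 1-digit libraries of day 1. At day 3 they were 18.5, 24.2 and 28.2 CPM in 3-digit and 5.25 and 5.36 CPM in 1-digit libraries. The 1-digit libraries of both later days did not overlap with day 0. Day 1 against day 0 gave 1.19 ± 0.50 over all libraries (adjusted p = 0.0702; it was called without replicate 1 of day 1, at 1.35, or without replicate 4 or 5 of day 3, at 1.19 and 1.22) and 1.51 ± 0.25 within the 1-digit ones (adjusted p = 0.000211), and the 3-digit libraries of day 1 were lower than the 1-digit ones by -0.97 ± 0.29 (adjusted p = 0.0225).

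The other entry genes were Ccna2 and Ccnb2, cyclins of late S phase and mitosis, and Melk, a kinase made in dividing cells. Their log2 fold changes at day 3 against day 0 were 3.37, 3.29 and 3.14, all called, and -0.52, -0.32 and -0.12 at day 1, not called. Ccnb2 had 2.42 and 1.69 CPM in 1-digit libraries of day 3, inside its day 0 range of 0.847 to 3.80 CPM, and 32.1 to 35.4 CPM in 3-digit ones.

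All 6 mitotic kinase genes rose at day 3 against day 0 (19.5% of all genes). None was called at day 1 (23.3% of all genes higher and 18.7% lower), where the 6 had adjusted p from 0.472 (Aurka) to 0.872 (Bub1b). Plk1, the Polo-like kinase that matures centrosomes and anchors kinetochores, had 1.96, 0.588, 1.39 and 0.605 CPM at day 0 and 1.02, 2.498, 1.29, 1.54 and 1.45 CPM at day 1. Its day 3 levels were 15.4, 20.3 and 28.3 CPM in 3-digit and 2.96 and 1.54 CPM in 1-digit libraries. Replicate 5 of day 3 lay among the day 0 values, and the 3-digit libraries were clear of all others. The log2 fold change against day 0 was 3.59 ± 0.75 (adjusted p = 0.00299).

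Aurkb is the Aurora kinase of the chromosomal passenger complex, which corrects wrong attachments. It had 1.55, 1.12, 1.33 and 0.363 CPM at day 0, 1.24, 3.13, 1.02, 0.914 and 0.402 CPM at day 1, and 14.8, 17.1, 22.1, 3.43 and 2.06 CPM at day 3. All 5 day 3 libraries were above day 0, and it was called at day 3 also within the 1-digit libraries (1.33 ± 0.48, adjusted p = 0.0332). The log2 fold change over all libraries was 3.44 ± 0.75 (adjusted p = 0.00361).

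Bub1b (BubR1), a part of the spindle checkpoint that holds back anaphase, had 1.496, 0.824, 1.33 and 0.423 CPM at day 0 and 0.754, 1.59, 0.681, 1.26 and 1.37 CPM at day 1. At day 3 its levels were 16.3, 21.3, 20.9, 3.23 and 1.32 CPM, with a log2 fold change of 3.63 ± 0.73 against day 0 (adjusted p = 0.00229). The checkpoint kinases Bub1 and Ttk (Mps1) changed by 3.64 and 3.75, and Aurka, the Aurora kinase of the spindle poles, by 2.91. Ttk was the thinnest of the set in reads, with 1 read in replicate 4 of day 0.

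**Figure D4:**
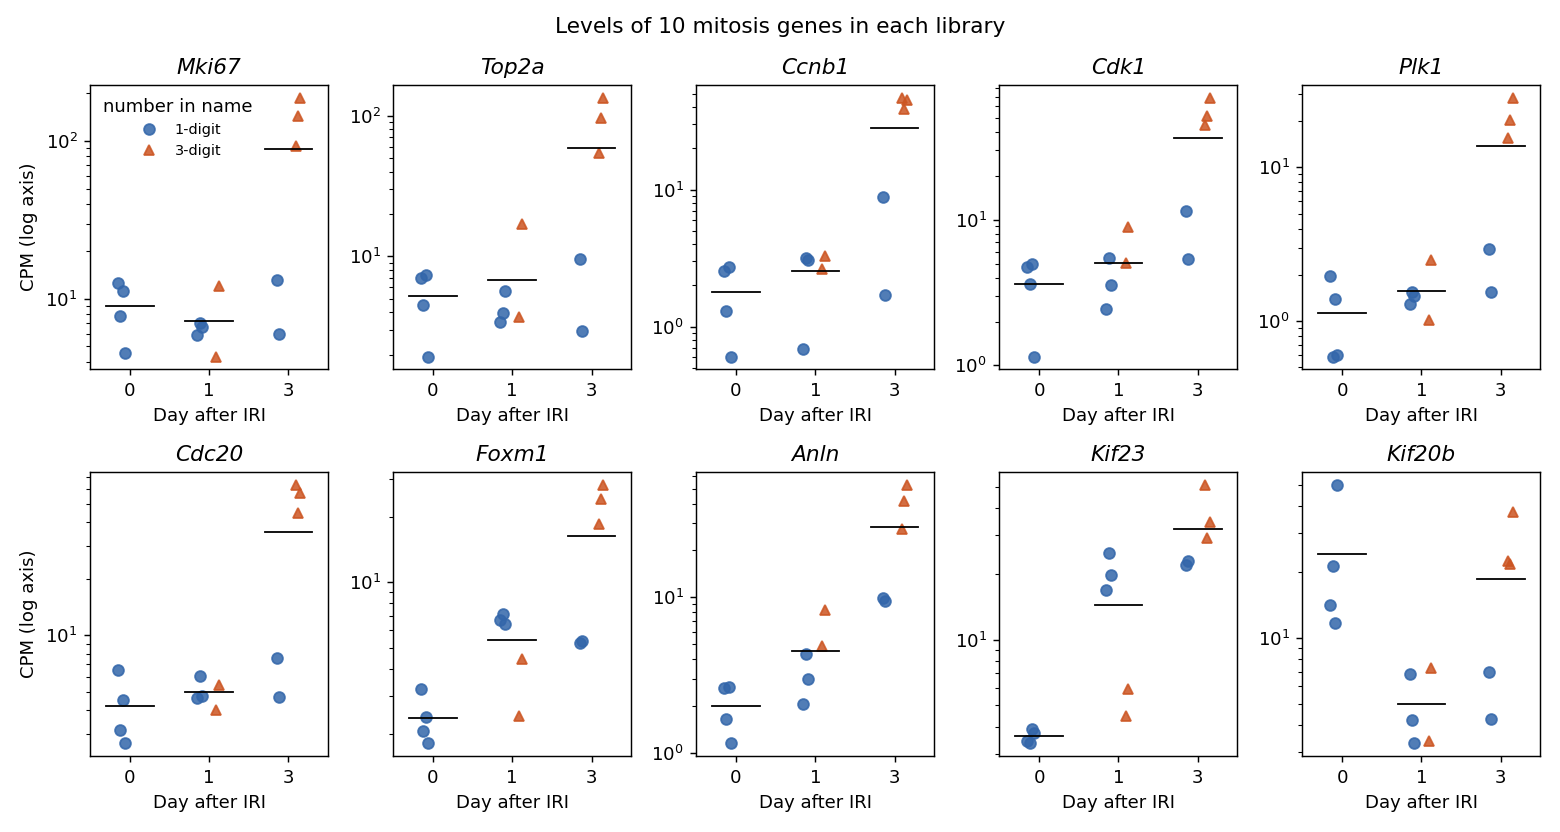
Level of 10 mitosis genes in each library (CPM, log axis) at day 0, 1 and 3 after IRI, with circles for 1-digit and triangles for 3-digit libraries and a bar at the mean of each day. At day 3 the triangles stand apart from the circles in Mki67, Top2a, Ccnb1, Cdk1, Plk1, Cdc20, Foxm1 and Anln, while in Kif23 the 1-digit libraries are high from day 1 and in Kif20b the highest point is a day 0 library at 50.1 CPM.

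Mki67, which coats mitotic chromosomes and gives the Ki-67 stain of dividing cells, had the most reads of the set in the 3-digit libraries of day 3. In the 1-digit ones Kif23 had more (326 against 196 reads in replicate 4 and 313 against 81 in replicate 5). Its levels were 12.7, 7.83, 11.2 and 4.54 CPM at day 0 and 4.31, 12.1, 5.93, 7.03 and 6.68 CPM at day 1. At day 3 they were 92.7, 145 and 188 CPM in 3-digit and 13.2 and 5.95 CPM in 1-digit libraries. Of the 1-digit libraries of day 3, replicate 4 was just above all of day 0 and replicate 5 within its range (9.57 ± 5.11 CPM, SD, n = 2, against 9.05 ± 3.62, n = 4), with a log2 difference of 0.08 ± 0.46 (adjusted p = 0.886). Over all libraries the log2 fold change was 3.30 ± 0.80 (adjusted p = 0.007), and between formats within day 3 it was 3.88 ± 0.54 (adjusted p = 0.00217).

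Top2a is the topoisomerase that untangles sister DNA before it is pulled apart. It had 6.96, 4.47, 7.33 and 1.94 CPM at day 0 and 3.72, 17.1, 3.41, 3.94 and 5.63 CPM at day 1, where replicate 2 stood apart. Day 3 gave 54.3, 95.8, 134, 9.48 and 2.94 CPM, a log2 fold change of 3.52 ± 0.93 against day 0 (adjusted p = 0.0108) and of 3.92 ± 0.72 between formats (adjusted p = 0.0063). Ncapg and Ncaph, subunits of condensin I, which compacts chromosomes, rose by 3.04 ± 0.85 and 2.81 ± 0.77 at day 3.

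The 8 centromere and kinetochore genes all rose at day 3 (19.5% of all genes), by 2.35 (Cenpe) to 3.59 (Birc5) on the log2 scale. Ndc80, the outer kinetochore protein that grips the microtubule, had 0.920, 0.353, 1.14 and 0.302 CPM at day 0 and 0.862, 1.82, 0.341, 0.629 and 0.402 CPM at day 1. The day 3 levels were 6.21, 11.5, 14.8, 2.15 and 0.808 CPM (log2 fold change 3.38 ± 0.80, adjusted p = 0.00594). Its partner Nuf2 had the widest error of the set (2.91 ± 1.03, adjusted p = 0.0417) and 2 reads in replicate 5 of day 3.

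Cenpf, a large kinetochore protein that appears in G2, had the largest difference between day 3 and day 1 (4.33 ± 0.88, adjusted p = 0.00735). It had 3.34, 1.71, 2.08 and 0.968 CPM at day 0, 1.35 and 2.23 CPM in 3-digit and 0.204, 0.743 and 0.643 CPM in 1-digit libraries of day 1. All 3 1-digit libraries of day 1 were below day 0 (-1.91 ± 0.61, adjusted p = 0.0165). Day 3 levels were 30.3, 33.2, 39.7, 4.03 and 0.661 CPM.

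Cenpa, the histone H3 variant that marks centromeres, went the other way at day 1. It had 1.61, 1.59, 1.71 and 0.484 CPM at day 0, 1.08 and 1.32 CPM in 3-digit and 3.48, 2.57 and 2.41 CPM in 1-digit libraries of day 1, a log2 difference between formats of -1.23 ± 0.39 (adjusted p = 0.0281). Cenpa was named after its values were seen. Birc5 (survivin) and Cdca8 (borealin), which seat Aurkb at the centromere, rose by 3.59 and 2.59 at day 3, Cenpe, a kinesin of the kinetochore, by 2.35, and Casc5 (Knl1), the platform for Bub1, by 3.21.

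Of the 7 spindle and motor genes, 6 rose at day 3 (19.5% of all genes). Kif11 (Eg5), the kinesin that pushes the spindle poles apart, had 2.53, 1.88, 3.28 and 2.12 CPM at day 0, 0.808, 2.86, 1.23, 1.77 and 1.05 CPM at day 1, and 16.0, 28.8, 35.1, 3.70 and 1.76 CPM at day 3. The 3-digit libraries of day 3 were again the top 3, and the log2 fold change against day 0 was 2.80 ± 0.72 (adjusted p = 0.00914). Tpx2, which brings Aurka to the spindle, had 3.34, 1.71, 4.74 and 1.27 CPM at day 0, 2.21, 6.54, 1.91, 2.40 and 2.73 CPM at day 1, and 26.3, 32.5, 41.7, 6.12 and 4.55 CPM at day 3 (3.01 ± 0.67, adjusted p = 0.00436).

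Hmmr, which binds microtubules at the spindle poles, gave the widest split between the formats of day 3. It had 25.1, 28.6 and 48.3 CPM in 3-digit and 2.82 and 0.735 CPM in 1-digit libraries, against 2.36, 1.53, 2.40 and 1.09 CPM at day 0 and 1.24, 1.68, 0.954, 0.8002 and 0.804 CPM at day 1. In the 1-digit libraries its difference from day 0 was -0.037 ± 0.47 (adjusted p = 0.952), against 3.52 ± 0.86 over all libraries (adjusted p = 0.00732). Kif2c, Kif4 and Nusap1, which shorten, organise and bundle microtubules, rose by 3.68, 2.99 and 3.24.

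Kif20b, a kinesin of cytokinesis, was the member with no call at day 3 whose fold change was below 0. Its day 0 levels were 14.1, 21.2, 11.7 and 50.1 CPM, from 245, 361, 185 and 829 reads, the highest of the set at day 0 also per exon length (3.49 ± 2.54 RPKM, SD, n = 4, which is CPM divided by the exon length in kilobases), though without replicate 4 it was second to Cdc20 (2.25 ± 0.715 against 2.53 ± 0.909 RPKM, n = 3). It fell to 3.39, 7.27, 6.81, 4.23 and 3.30 CPM at day 1, all below day 0 (log2 fold change -2.27 ± 0.57, adjusted p = 0.00649, and -1.64, adjusted p = 0.0329, without replicate 4 of day 0). At day 3 it was at 22.3, 21.9 and 37.4 CPM in 3-digit libraries, inside the day 0 range only because of replicate 4 and above the other 3 day 0 libraries, and at 6.99 and 4.26 CPM in 1-digit libraries, below it (-2.11 ± 0.59, adjusted p = 0.00884). Over all libraries day 3 against day 0 was -0.38 ± 0.55 (adjusted p = 0.615), and 0.25 without replicate 4 of day 0 (adjusted p = 0.761). The difference between formats within day 3 was 2.27 ± 0.61 (adjusted p = 0.0248).

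Replicate 4 of day 0, which had the highest Kif20b, was the lowest of the 4 day 0 libraries in 32 of the 41 genes (34.3% of all genes). That library had 45.4 CPM of urothelium and 37.4 CPM of adipocyte markers, against 1.82 to 8.63 and 0 to 0.632 CPM in the other 3, and their part in the Kif20b value was not tested.

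All 4 genes of anaphase and exit rose at day 3 (19.5% of all genes). Cdc20, which turns on the anaphase-promoting complex, had 6.4999, 3.12, 4.55 and 2.66 CPM at day 0 and 3.99, 5.45, 4.63, 6.06 and 4.75 CPM at day 1. At day 3 it had 63.5, 44.7 and 57.1 CPM in 3-digit and 7.53 and 4.70 CPM in 1-digit libraries. The log2 fold change was 3.08 ± 0.65 against day 0 (adjusted p = 0.00321) and 3.17 ± 0.36 between formats within day 3 (adjusted p = 0.00116).

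Ube2c, the ubiquitin-conjugating enzyme of that complex, had 2.93, 1.47, 2.53 and 0.726 CPM at day 0, 1.45, 2.23, 1.23, 2.17 and 1.45 CPM at day 1, and 22.8, 33.5, 37.9, 4.98 and 1.18 CPM at day 3 (3.39 ± 0.78, adjusted p = 0.005). Day 0 and day 1 overlapped in this gene, and so did replicate 5 of day 3. Espl1, the separase that cuts cohesin, rose by 3.05 ± 0.68, and Cdca3, which promotes the turnover of the Cdk1 inhibitor Wee1, by 3.18 ± 0.75.

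In the last group, the midzone and cytokinesis genes, 5 of 6 rose at day 3 (19.5% of all genes). Anln (anillin), which links actin and myosin in the contractile ring, had 2.59, 1.65, 2.65 and 1.15 CPM at day 0 and 4.85, 8.31, 2.04, 4.34 and 2.98 CPM at day 1. At day 3 it had 27.7, 41.7 and 53.1 CPM in 3-digit and 9.95 and 9.40 CPM in 1-digit libraries. Both 1-digit libraries of day 3 exceeded all of day 0, and Anln was called there (2.26 ± 0.36, adjusted p = 0.000259) as well as over all libraries (3.82 ± 0.59, adjusted p = 0.000444).

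Racgap1, which forms centralspindlin together with Kif23, had 4.60, 3.18, 2.97 and 2.24 CPM at day 0, 3.02, 5.77, 2.11, 2.63 and 2.33 CPM at day 1, and 29.0, 32.9, 37.0, 6.52 and 3.82 CPM at day 3 (2.75 ± 0.60, adjusted p = 0.0038). Kif23 (MKLP1), its partner in bundling midzone microtubules, had a different course. It had 3.45, 3.35, 3.92 and 3.75 CPM at day 0, 4.47 and 5.95 CPM in 3-digit and 16.8, 24.9 and 19.7 CPM in 1-digit libraries of day 1, all 5 above day 0.

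At day 3 Kif23 had 51.2, 29.2 and 34.5 CPM in 3-digit and 21.9 and 23.0 CPM in 1-digit libraries, so it was high in both formats. The log2 fold change was 1.98 ± 0.45 for day 1 (adjusted p = 0.00365) and 3.14 ± 0.47 for day 3 (adjusted p = 0.000353) against day 0. Within the 1-digit libraries it was 2.501 ± 0.21 at day 1 (adjusted p = 1.58e-06) and 2.63 ± 0.22 at day 3 (adjusted p = 4.08e-06), and the day 1 value of the 3-digit libraries was 0.53 ± 0.24 (adjusted p = 0.0888). The format difference of Kif23 was -1.97 ± 0.25 within day 1 and 0.77 ± 0.23 within day 3, opposite in sign.

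Ect2, the exchange factor that starts furrowing at the cell equator, was high at day 0, at 10.5, 7.65, 11.6 and 8.95 CPM. At day 1 it had 4.74 and 11.1 CPM in 3-digit and 3.34, 3.37 and 3.94 CPM in 1-digit libraries, the latter below day 0 (-1.45 ± 0.35, adjusted p = 0.00308). At day 3 it had 24.99, 49.1 and 58.9 CPM in 3-digit and 8.27 and 4.92 CPM in 1-digit libraries. Prc1, which crosslinks midzone microtubules, and Kif20a, a midzone kinesin, rose by 3.57 and 2.76 at day 3 against day 0, and Kif20a had 3.23 and 1.84 CPM in 1-digit libraries of day 3 against 2.36 to 5.35 CPM at day 0.

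Replicate order within a group was shared across many of the genes. Replicate 2 was the highest library of day 1 in 33 of 41 genes (28.6% of all genes), and it also had 91.9 CPM of urothelium and 15.1 CPM of adipocyte markers against 5.04 to 12.7 and 0.161 to 1.72 CPM in the other 4 libraries of day 1. The part of those cells in the order was not tested. Among the 3-digit libraries of day 3, replicate 3 was the highest in 37 of 41 genes (27.5% of all genes), not in Bub1b, Ccnb1, Cdc20 and Kif23. The ratio of replicate 1 to replicate 3 had a median of 0.614 and ran from 0.368 (Nuf2) to 1.48 (Kif23), with 0.406 for Top2a, 0.494 for Mki67, 1.03 for Ccnb1 and 1.11 for Cdc20. The ratio of replicate 2 to replicate 3 had a median of 0.781 and ran from 0.531 (Cdca3) to 1.02 (Bub1b).

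The exon length used joins the exons of all annotated transcripts of a gene, so an order per length depends also on how many are annotated. It was 1531 bases for Ccnb2 (1 transcript) and 8225 for Prc1 (14 transcripts). Per length, the order of the genes in the 3-digit libraries of day 3 was led by Cdc20 (29.5 ± 5.12 RPKM, SD, n = 3), Ccnb2 (21.8 ± 1.17), Ccna2 (15.6 ± 3.86), Mki67 (14.1 ± 4.73) and Ube2c (12.1 ± 2.99). Of these, Ccna2 and Mki67, and Mki67 and Ube2c, were neighbours that differed by less than their SDs. The lowest were Casc5 (1.20 ± 0.336) and Espl1 (1.19 ± 0.224). At day 0 the top was Kif20b, by its replicate 4, then Cdc20 (2.25 ± 0.925), Ect2 (1.79 ± 0.318) and Ccnb2 (1.39 ± 0.859), and the bottom was Casc5 (0.0822 ± 0.0362). In the 1-digit libraries of day 3, Cdc20 (3.27 ± 1.07, n = 2) and Kif23 (2.84 ± 0.0957) led, and so they did in the 1-digit libraries of day 1 (2.75 ± 0.424 and 2.59 ± 0.519, n = 3). In the 3-digit libraries of day 1 Cdc20 (2.53 ± 0.554, n = 2) was followed by Ect2 (1.47 ± 0.832), and Kif23 was at 0.66 ± 0.132, rank 21.

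Other genes of the cell cycle were set beside the mitosis genes as fixed lists, and their counts are to be read against the shares of all genes: 23.3% higher and 18.7% lower at day 1, 19.5% higher and 13.8% lower at day 3, both against day 0, and 10.3% higher and 8.22% lower in the 3-digit libraries within day 3. Of 24 tested genes of the spindle and cytokinesis outside the set, 20 rose and 0 fell at day 3 against day 0, with a median log2 fold change of 3.09, and 22 were higher in the 3-digit libraries within day 3. Its most abundant genes were Ckap5, a microtubule polymerase (34.6 CPM at day 0 and 44.4 at day 3, 0.36 ± 0.17, adjusted p = 0.114), and Arhgap11a, a GTPase-activating protein (2.88 and 29.7 CPM, 3.36 ± 0.32, adjusted p = 1.12e-05). Arhgap11a had also risen at day 1 (2.05 ± 0.30, adjusted p = 0.000219). At day 1 the list had 3 genes higher and 1 lower, with a median of 0.22.

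Of 31 other kinetochore and centromere genes, 24 rose and 0 fell at day 3 (median 1.93), and 6 rose and 0 fell at day 1 (median 0.40). Zwint, a kinetochore protein and by far the most abundant of the list, had 113 CPM at day 0, 391 at day 1 and 223 at day 3 (1.79 ± 0.30, adjusted p = 0.000531, and 0.98 ± 0.29, adjusted p = 0.0195), and was the 1 gene of the list that was lower in the 3-digit libraries within day 3, where 16 were higher. Bub3, a checkpoint protein, had 42.8, 57.5 and 49.3 CPM (0.42 ± 0.12 at day 1, adjusted p = 0.0112). These levels are per library and not per length.

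Genes of DNA replication, which precede mitosis in the cycle, had a smaller median change. Of 27, 16 rose and 0 fell at day 3 against day 0 (median 1.36), 9 were higher in the 3-digit libraries within day 3, and at day 1 7 rose and 0 fell (median 0.77). The list summed to 391 to 416 CPM in 1-digit and 415 to 957 CPM in 3-digit libraries of day 1, against 276 to 471 CPM at day 0. Pcna, the sliding clamp of DNA polymerase, had 50.04 CPM at day 0, 85.4 at day 1 and 99.4 at day 3 (0.77 ± 0.23, adjusted p = 0.0152, and 0.99 ± 0.23, adjusted p = 0.00551). In the 1-digit libraries of day 3, 8 genes of the list were higher and 1 lower than at day 0, where 28.6% of all genes were higher and 25.1% lower.

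Genes that control mitotic entry (17, among them the Cdc25 phosphatases, Wee1 and the Cks proteins) had 12 higher and 1 lower at day 3 (median 2.05) and 6 higher and 0 lower at day 1 (median 0.83). The gene lower at day 3 was Arpp19, an inhibitor of the phosphatase PP2A (134 and 94.4 CPM at day 0 and 3, -0.51 ± 0.14, adjusted p = 0.0143), and its relative Ensa had 76.0 and 86.6 CPM (0.19 ± 0.14, adjusted p = 0.318). Cohesin and condensin genes (16) moved less, with 7 higher and 1 lower at day 3 (median 0.38). Ncaph2, of condensin II, was among the higher (0.51 ± 0.11, adjusted p = 0.00438), and the cohesin subunit Rad21 was at 0.26 ± 0.13 (adjusted p = 0.141).

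Subunits and inhibitors of the anaphase-promoting complex (15) were mostly not called, with 2 higher and 1 lower at day 3 (median 0.20) and 5 higher and 1 lower at day 1 (median 0.09). Anapc5 had 194, 207 and 223 CPM at day 0, 1 and 3 (0.20 ± 0.14 at day 3, adjusted p = 0.29), and Anapc7 62.5, 104 and 92.0 CPM (0.56 ± 0.20, adjusted p = 0.041).

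Of 18 genes of the E2F, DREAM and MuvB complexes, 5 rose (E2f3, E2f7, E2f8, Lin54 and Mybl2) and 2 fell (E2f5 and Rbl2) at day 3, against 19.5% and 13.8% of all genes. Rbl2, which encodes p130 of DREAM, had 98.5 CPM at day 0, 34.4 at day 1 and 58.8 at day 3 (-1.52 ± 0.23, adjusted p = 0.000261, and -0.74 ± 0.23, adjusted p = 0.0219), and Rbbp4, a histone chaperone of MuvB, had 177, 184 and 159 CPM (-0.15 ± 0.11 at day 3, adjusted p = 0.314). Mybl2 (B-Myb), named after its values were seen, had 0.992 CPM at day 0, 2.22 at day 1 and 7.95 at day 3 (3.00 ± 0.32, adjusted p = 3.1e-05). Within day 3 its level was 9.08 CPM in 3-digit and 6.27 CPM in 1-digit libraries, a log2 difference of 0.54 ± 0.34 (adjusted p = 0.268), and against day 0 the 1-digit libraries alone were higher by 2.65 ± 0.33 (adjusted p = 5.05e-05).

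Of 17 tested genes of cell cycle arrest, 7 rose and 1 fell at day 1 (median 0.43), and 6 rose and 1 fell at day 3 (median 0.68), while 9 and 10 were not called. Cdkn1a, the inhibitor p21, had 27.3 CPM at day 0, 419 at day 1 and 194 at day 3 (3.94 ± 0.64, adjusted p = 0.000411, and 2.83 ± 0.60, adjusted p = 0.0033). Within day 3 it had 130 CPM in 3-digit and 290 CPM in 1-digit libraries, a log2 difference of -1.16 ± 0.54 that was not called (adjusted p = 0.139). Ccng1, a p53 target, had 363, 254 and 325 CPM (-0.16 ± 0.22 at day 3, adjusted p = 0.596).

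Cell type markers differed between the formats of day 3 too, beside the mitosis genes. Of 10 proximal tubule markers 4 were higher in the 3-digit libraries (Slc34a1, Lrp2, Cubn and Miox) and 0 lower, and the list summed to 9485, 20395 and 10083 CPM there and to 9390 to 11456 CPM in 1-digit ones, so that in sum only replicate 2 was above them. Of 4 thick limb markers 3 were higher, but their sums overlapped (2787, 2537 and 3333 CPM in 3-digit against 2032 and 2872 CPM in 1-digit libraries). Of 6 injured tubule markers 0 were higher and 1 lower (Krt20), and their sums were 1784 to 4375 CPM against 4662 to 6237 CPM. Some tubule markers were thus higher, and no injury marker was called higher, in the libraries with more mitosis RNA.

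Among the other cells, 4 of 8 macrophage and monocyte markers were higher at day 3 in 3-digit than in 1-digit libraries (Adgre1, Csf1r, Ccr2 and C1qb) and 1 lower (Cd68), with sums of 111 to 148 against 84.0 to 104 CPM, and the sums at day 0 were 110 to 150 CPM. Of 6 endothelial markers 4 were lower (189 to 346 against 514 to 810 CPM), and of 7 fibroblast and pericyte markers 3 were lower (533 to 1083 against 811 to 1405 CPM), although all 7 had risen at day 3 against day 0. Neutrophil markers (4 of 6 tested) had 0 higher and 0 lower, and of the collecting duct markers 2 of 6 were higher. Podocyte markers had 2 of 5 lower, and urothelium (5 of 6 tested) and adipocyte (1 of 4 tested) markers had 0 called. The part of any of these cell types in the levels of the mitosis genes was not tested.

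**Figure D5:**
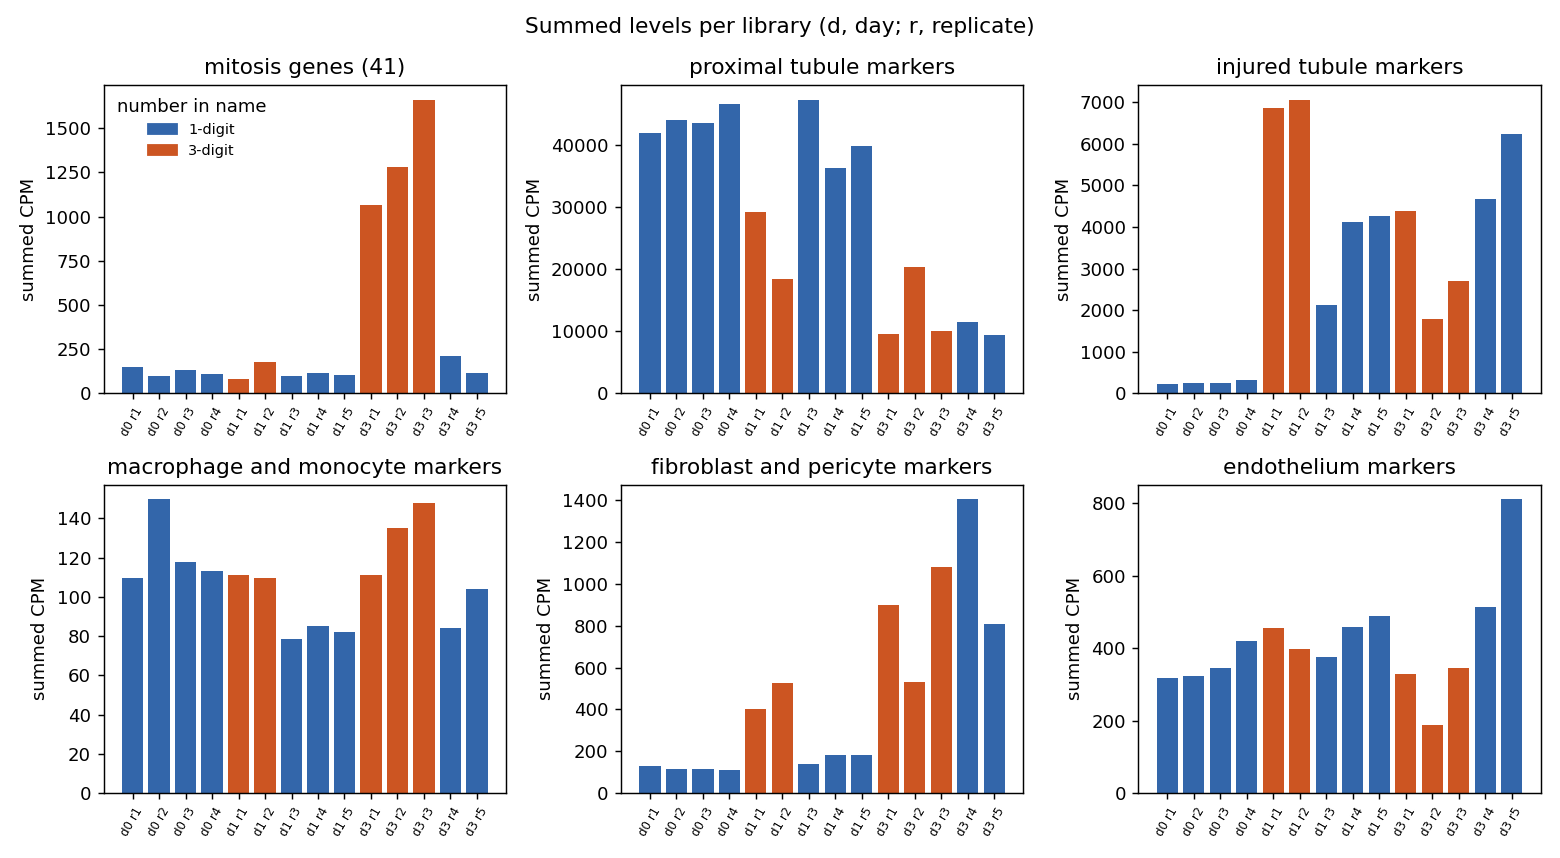
Summed CPM per library (d, day, r, replicate) of the 41 mitosis genes and of 5 lists of cell type markers, with blue bars for 1-digit and orange bars for 3-digit libraries. The mitosis genes reach 1063 to 1662 CPM in 3-digit libraries of day 3 and at most 213 CPM elsewhere, while injured tubule markers are high in all 10 libraries after IRI.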

How the data were processed

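Total RNA of the kidneys was isolated in TRIzol, and an Illumina TruSeq kit was used for library preparation. The submitters' processing notes name Trimmomatic, STAR and the mm10 build, and versions, parameters and annotation are not given in the sources used here. The deposited files hold STAR's counts of reads per gene, not normalized, 1 file per library. The column of the strand with 98.5% to 98.7% of the strand-assigned reads was used, and the entries that name no gene (29.0% to 38.3% of reads) were left out. Counts of any pair of replicates differed by more than sampling noise (chi-square statistic over its degrees of freedom, 5.69 to 228), and 0 columns of per-sample values were unused.

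All genes went into edgeR 4.0.16 under R 4.3.3 (filterByExpr by day, TMM, quasi-likelihood test), in a fit with a term per day and a fit with a term per day and number format, each with all 14 libraries, and p-values were adjusted by Benjamini-Hochberg for the 14300 genes tested. The F statistic gave the standard error of each log2 fold change. Also run were RLE size factors, the unstranded column, no filter or at least 10 counts in every library, DESeq2 1.42.0, a log2 fold change of at least 1, only the days compared, the number format as a term, the replicate block and leaving out each library. Tested on simulated counts in which 200 genes had a true log2 change of 2, the method found 200 of them and made 6 false calls for day 3 against day 0 (14173 genes) and 189 with 13 false calls for the formats of day 3 (14164 genes), and made 0 calls where nothing changed. In the simulated comparison of days the libraries did not differ by number format, unlike the real ones. Its counts thus do not describe the real comparison of days.

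Exon lengths came from a GENCODE annotation of GRCm38, where Casc5 is listed as Knl1, and promoters from RefSeq GRCm38.p6. Of the 41 genes, 8 overlap another annotation on the same strand. The members, lists and tests were chosen with earlier results of these data known. Values in every library were given for 15 members fixed by role, for the members with the 2 largest and 2 smallest fold changes between days, and, after their values were seen, for Cenpa. Of each other list the 2 genes with the highest mean CPM were named, except 1 replication gene that is not reported here, and further names were chosen after their values were seen. Figures were drawn with Python 3.11.15 and matplotlib 3.10.9.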

Additional observations from a re-analysis of the deposited data

Results flagged for a closer look

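The sets of values in this paragraph share the same libraries and are not independent, so the count given for chance is only nominal. Within groups of 4 or 5 libraries, 15 of 126 sets of values held a library apart from the rest by Dixon's test, where chance gives about 6.3 (1 in 20). Of these, 12 were replicate 2 of day 1 standing high: Melk at 2.04 CPM, Ttk at 1.73, Top2a at 17.1, Ncaph at 6.63, Nuf2 at 2.04, Cdca8 at 5.22, Kif4 at 2.41, Tpx2 at 6.54, Cdca3 at 3.59, Prc1 at 6.13, Ect2 at 11.1 and Racgap1 at 5.77 CPM. The other 3 were low values, Ccnb1 at 0.681 CPM in replicate 3 of day 1, Nusap1 at 1.94 CPM in replicate 1 of day 1 and Cenpa at 0.484 CPM in replicate 4 of day 0.

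The signed log2 difference between number formats, 3-digit minus 1-digit, was higher at day 3 than at day 1 in 24 of 41 genes by the test of the interaction (edgeR). Among the named genes with a called interaction it was higher by 3.12 for Foxm1 (adjusted p = 0.000788), 2.92 for Plk1 (0.0162), 3.55 for Mki67 (0.00506), 2.98 for Bub1b (0.0133), 2.83 for Kif11 (0.0178), 3.29 for Cdc20 (0.00118), 3.16 for Ube2c (0.0189), 1.77 for Racgap1 (0.0222), 2.74 for Kif23 (0.000566) and 3.46 for Hmmr (0.00663). Foxm1, Cenpa and Kif23 were called in opposite directions between formats on the later days, lower in the 3-digit libraries at day 1 and higher at day 3.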

How the results depend on the processing

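The count of mitosis genes called at day 1 against day 0 moved from 2 to 4 with only these 2 days in the fit, to 8 with the number format as a term (1 higher and 7 lower) and to 7 with only the 1-digit libraries. At day 3 against day 0 the count of 39 fell to 16 with the format as a term and to 8 with only the 1-digit libraries, and at day 3 against day 1 the count of 40 fell to 5 with only the 1-digit libraries. The format term assumes the same format difference at both later days. Fewer samples enter the 1-digit values, and 28.6% of all genes were called higher there at day 3 against day 0, against 19.5% over all libraries. The median log2 fold change of the mitosis genes was 0.57 there and 3.21 over all libraries. The cause of the lower counts was not tested. Leaving out each library gave 2 to 3 called at day 1, 38 to 40 at day 3 and 33 to 40 for day 3 against day 1. For the formats of day 1 it gave 2 to 8 (2 without replicate 2 or 3 of day 1, 3 without replicate 4 or 5), for those of day 3 15 to 41 (15 without replicate 5), and for the interaction 13 to 28 (13 without replicate 1 of day 1). Foxm1, Top2a and Kif20b lost the call of day 3 against day 1 in 7, 4 and 7 of the 14 fits without a library, with log2 fold changes down to 1.29, 2.58 and 1.46. A lone library left in a group is then assumed to vary like the others. Shares of all genes called in the fits without a library are not given here. With only the 1-digit libraries Hmmr at day 3 against day 0 turned to -0.037 and Foxm1 at day 3 against day 1 to -0.35. Among values not called in either setting, the sign changed in 31 of 496 fitted values at day 1 and in 4 at day 3 against day 0. With a replicate block 3, 39 and 37 genes were called in the comparisons of days. Same-numbered libraries had correlations of deviations from the day mean from -0.150 to 0.251 (over 0.1 in 4 of 13 pairs). The number format runs with the replicate number at days 1 and 3, so these correlations cannot show whether the libraries were paired. The other settings listed among the methods kept the counts within 1.5 times, and at least 10 counts in every library left 28 genes to test, of which 26 were called at day 3 against day 0. Genes at 1 or 2 reads in a library, such as Ttk, Casc5 and Nuf2, limit what can be said of low values.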
